A study of Homo sapiens with 8 samples.

Results

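The departure of 2 drugs from additive effects was measured gene by gene in K562 and KBM5, human lines of chronic myeloid leukaemia. For each line, the difference OR21 minus control was subtracted from the difference combination minus IM, on the log2 intensity scale. The result is called the interaction here: it is 0 where the 2 drug effects add up, positive where the combination was higher than additive and negative where it was lower than additive. Adding on the log2 scale means multiplying intensities. Genes above background on at least 2 of a line's 4 arrays were kept, where background is the level that 95% of an array's negative controls do not exceed. This kept 7200 genes in K562 and 6746 in KBM5 of 17687 genes measured, with 5961 kept in both lines and 7985 in either. Just inside this limit in K562 lay ERN1 and PDRG1 with interactions of 0.59 and 0.97, and just outside it GSKIP and NIN with 0.44 and -0.32. In KBM5, PCBP4 and SMPD2 lay just inside with -0.59 and 0.28, and PRKAR2B and LY6K just outside with 0.68 and -2.15.

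Both lines carry the BCR-ABL1 fusion kinase, and each had 4 arrays, 1 per treatment. The combination was OR21 at 100 nM for 3 consecutive days followed by IM (imatinib) at 1000 nM, with RNA taken 24 hours after IM. The single treatments were IM at 1000 nM for 24 hours and OR21 at 100 nM for 3 days, and the control cells received no drug. The sample label of the combination leaves out the OR21 dose, which comes from the treatment protocol. The study asked which expression changes belong to the combination.

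Imatinib binds the kinase domain of BCR-ABL1 and shuts off the signalling that keeps chronic myeloid leukaemia cells dividing. K562 cells make more haemoglobin when this kinase is inhibited, while KBM5 cells have a myeloid character. The series title calls OR21 (OR-2100) a demethylating agent, and such agents cause loss of DNA methylation as cells replicate, which can release silenced genes. When one drug is given before the other, the second can change a gene less than it does alone (blunting) or more (deepening), and the interaction measures this difference.

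With 1 array per treatment and line, the interaction of a line has no replicate check and no test, and precision is limited by how few arrays there are. Array medians ran from 77.8 to 83.3, backgrounds from 161 to 263, and 5874 to 7084 genes were above background on an array. The highest background belonged to the KBM5 control array. All 6 measured K562 markers were kept in K562 and none in KBM5. Of 7 measured myeloid markers, 5 were kept in KBM5 and 2 in K562. The 15 measured lymphoid markers were at background on all arrays of a line in all but 1 case in K562 and 2 in KBM5, and of 14 epithelial markers, 9 did not exceed background on any K562 array and 12 on any KBM5 array. The title of the K562 control array carries another second number than the other 7, which the labels do not explain.

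Most kept genes lay close to additivity in both lines, and KBM5 departed from it more often than K562. In K562, 266 of 7200 kept genes (3.69%) had an interaction of at least 2-fold, of which 138 (1.92%) were higher and 128 (1.78%) lower than additive. In KBM5, the count was 547 of 6746 (8.11%), with 383 (5.68%) higher and 164 (2.43%) lower. The median interaction was 0.05 in K562 and 0.07 in KBM5, with a standard deviation across genes of 0.47 and 0.58. The array's positive control probe sets that passed the same filter gave a yardstick: 81 of 2064 (3.92%) were past 2-fold in K562 and 121 of 2014 (6.01%) in KBM5. Their direction in KBM5 also leaned higher, with 90 higher (4.47%) and 31 lower (1.54%). The K562 share of genes therefore did not exceed that of the control probe sets, while the KBM5 share was higher than theirs. The KBM5 share depended on genes near background: it was 15.6% and 21.0% for genes above background on 2 and 3 arrays. For genes above it on all 4 arrays it was 274 of 5247 (5.22%), below the 6.01% of the control probe sets. Those control probe sets were not limited to all 4 arrays.

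Each interaction uses all 4 arrays of its line, so a shift on 1 array moves many genes together. Among the 128 K562 genes lower than additive, 91 had their lowest value on the control array and 77 their highest on the IM array. Among the 138 higher ones, 103 were lowest on the IM array and 92 highest on the control array. In KBM5, 281 of the 383 higher genes were lowest on the IM array, and 109 of the 164 lower genes were lowest on the control array. The part of any single array in these counts was not tested. In K562, quantile normalization turned the balance to 116 higher and 138 lower, and the 99th percentile as background to 32 higher and 58 lower. Under quantile normalization, the KBM5 split moved from 70.0% higher among genes past 2-fold to 58.5%, with 328 higher and 233 lower.

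**Figure D1:**
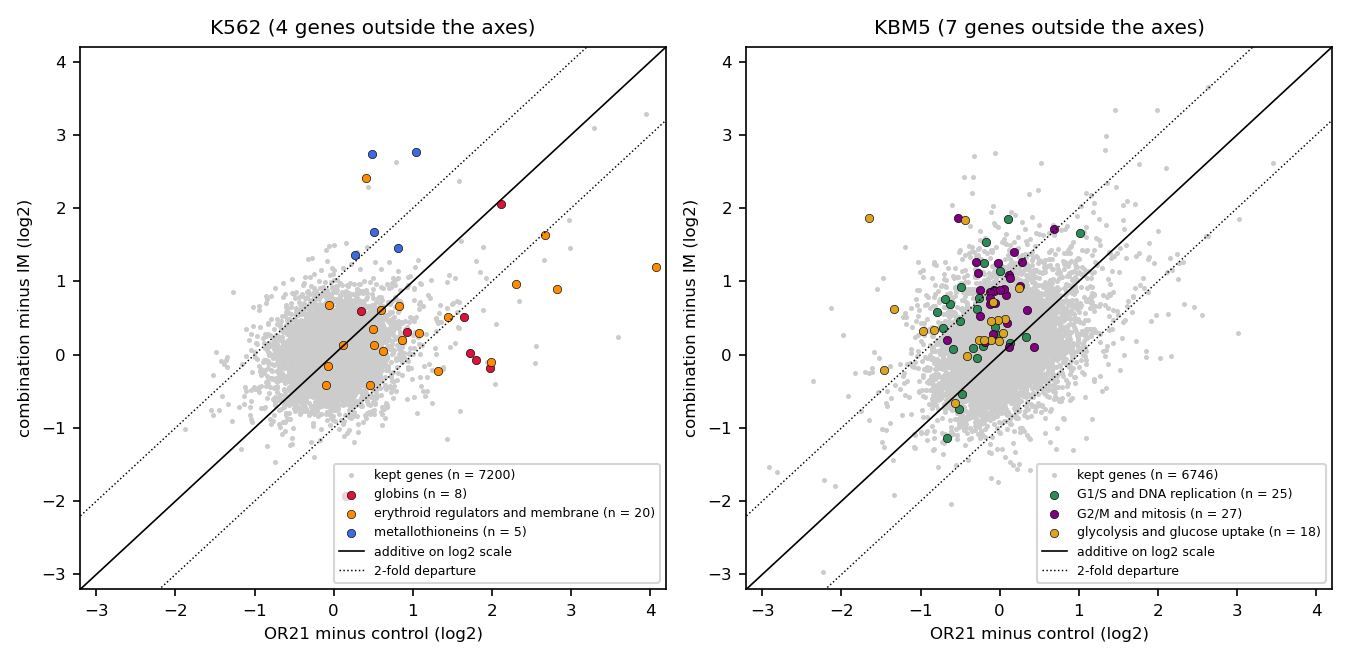
The OR21 difference with IM (combination minus IM, vertical axis, log2) is plotted against the OR21 difference without it (OR21 minus control, horizontal axis, log2) for kept genes, K562 left and KBM5 right, with coloured points for list members. Points on the solid line are additive and points beyond the dotted lines depart by at least 2-fold, and K562 globins lie below the line (median interaction -1.41) while KBM5 G1/S genes lie mostly above it (median 0.92).

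In K562, red cell genes made up the clearest group below additivity. Each drug alone was accompanied by higher globin, heme and erythroid membrane values than in control, and the combination stayed close to the IM array instead of adding the 2 differences. Of 8 kept members of the globin list, which includes the globin chaperone AHSP, 5 were lower than additive by at least 2-fold and 0 higher, with a median of -1.41 against 0.05 over all kept genes. The shares over all kept K562 genes were 1.78% lower and 1.92% higher. Of 17 heme and iron genes, 3 were lower and 0 higher, with a median of -0.44. Of 20 erythroid regulators and membrane genes, 6 were lower and 1 higher, with a median of -0.62. With values below background set to background (the floor), 4 of these 20 were lower and 1 higher, with a median of -0.23. Over the 3 lists, 38 of 45 genes had their lowest value on the control array and 32 their highest on the combination array.

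ALAS2, which catalyses the first step of heme synthesis in red cell precursors, measured 90007 in the combination, 75928 with IM, 4611 with OR21 and 383 in control. The combination and IM arrays were close to each other and far above OR21, and OR21 was far above control. Its interaction was -3.34, the lowest among K562 genes kept by the filter, since OR21 minus control was 3.59 and combination minus IM was 0.25. HEMGN, a nuclear protein of blood-forming cells, measured 14229 in the combination, 15310 with IM, 4222 with OR21 and 1098 in control, an interaction of -2.05. For both genes the promoter is shown because members of the red cell lists lay below additivity together. The capitals mark matches to AGATAA or TGATAA, the short motif bound by GATA factors, searched on both strands, in the 250 bases before the start of the gene (RefSeq, GRCh38.p14, given 5′ to 3′ on the gene's strand).
ALAS2 chrX:55030978-55031227, minus strand: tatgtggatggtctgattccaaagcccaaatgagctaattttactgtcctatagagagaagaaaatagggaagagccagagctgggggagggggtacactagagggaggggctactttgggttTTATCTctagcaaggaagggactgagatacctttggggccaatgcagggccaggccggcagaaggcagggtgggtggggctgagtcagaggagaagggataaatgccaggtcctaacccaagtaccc
HEMGN chr9:97944853-97945102, minus strand: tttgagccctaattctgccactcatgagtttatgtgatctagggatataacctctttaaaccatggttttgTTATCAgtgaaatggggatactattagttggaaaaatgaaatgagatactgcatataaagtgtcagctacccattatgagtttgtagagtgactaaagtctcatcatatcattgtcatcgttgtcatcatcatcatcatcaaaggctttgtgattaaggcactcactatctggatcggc

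Over windows of 250 bases before to 50 after the start, 16.6% of all 27305 RefSeq promoters held this motif, 7.53% of kept K562 genes with a promoter entry, 8 of 13 erythroid list members, 2 of 15 heme and iron list members (13.3%), and 15 of 99 genes lower than additive in K562 (15.2%). Among other K562 genes named as lowest, RHD held a match, and ERMAP, SLC6A9, FAXDC2 and ID2 held none in their windows. A match is a description of the sequence and shows no binding.

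The alpha globin gene HBA1 measured 454281 in the combination, 514885 with IM, 261397 with OR21 and 66173 in control, an interaction of -2.16. All 3 treated arrays were high and control was the lowest. These intensities approach the highest of any probe set on these arrays, 627722 to 788065 in K562, and the part of this in the interaction was not tested. HBA2, its near-identical copy, gave -1.87 and may share signal with it. HBZ, the embryonic zeta globin, measured 473566 in the combination, 467477 with IM, 193282 with OR21 and 58796 in control, an interaction of -1.70. HBE1, the embryonic epsilon globin, measured 123758 in the combination, 86338 with IM, 21391 with OR21 and 6827 in control, an interaction of -1.13.

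Genes of heme supply and the red cell surface were lowest in control and high on both IM-treated arrays. FECH, which inserts iron into heme, measured 11012 in the combination, 8493 with IM, 1637 with OR21 and 551 in control, an interaction of -1.20. SLC25A37, the mitochondrial iron importer, measured 25763 in the combination, 25709 with IM, 2866 with OR21 and 1167 in control, an interaction of -1.29. In both genes, the combination and IM arrays were the highest and control the lowest. SLC6A9, a glycine transporter, measured 1496 in the combination, 2556 with IM, 820 with OR21 and 272 in control, an interaction of -2.37. ERMAP, an erythroid membrane protein that carries the Scianna blood group, measured 9809 in the combination, 10541 with IM, 1619 with OR21 and 408 in control, an interaction of -2.09. RHD, the Rh blood group D antigen, measured 13396 in the combination, 7217 with IM, 5524 with OR21 and 782 in control, an interaction of -1.93, with RHCE as a close relative that may share signal. For SLC6A9 and ERMAP, the combination was lower than IM alone, while for RHD it was the highest of the 4 arrays.

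The sign for 4 of these genes depends on the scale. In linear intensity, the combination exceeded the sum of the single differences by 22856 units in HBE1, 9850 in ALAS2, 1437 in RHD and 1433 in FECH, although all 4 were below additive on the log2 scale. Of the 128 K562 genes lower than additive, 117 kept their sign on the linear scale, as did all 138 higher ones. In KBM5, 158 of 164 lower and 368 of 383 higher genes kept it, and RRM2, H2BC8 and SLC29A1, described further on as higher than additive, did not.

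FAXDC2 and ID2 completed the 8 lowest K562 genes above background on all 4 arrays. FAXDC2 measured 33948 in the combination, 36565 with IM, 3831 with OR21 and 657 in control, an interaction of -2.65. ID2, an inhibitor of helix-loop-helix transcription factors, measured 1328 in the combination, 1748 with IM, 1634 with OR21 and 397 in control, an interaction of -2.44. For ID2, the 3 treated arrays were alike and control was low.

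Not every red cell gene lay below additivity. GATA1, the master erythroid transcription factor, measured 13517 in the combination, 10621 with IM, 14713 with OR21 and 10445 in control, an interaction of -0.15. SLC4A1, the red cell anion exchanger band 3, measured 3654 in the combination and 689 with IM, against 13.6 with OR21 and 10.2 in control, both below background. Its interaction was 2.00 as measured and 2.39 with values below background set to background, so it was higher than additive either way. AHSP, which stabilises alpha globin, measured 828 in the combination, 199 with IM, 36.6 with OR21 and 8.48 in control, and gave -0.06 as measured and 2.04 with the floor. EPB42, a protein of the membrane skeleton, measured 5624 in the combination, 2456 with IM, 263 with OR21 and 15.6 in control, and gave -2.88 as measured but 0.49 with the floor. For AHSP and EPB42, the departure is therefore set by values below background and its size is not exact. HBD, the delta globin, measured 901 in the combination, 3443 with IM, 163 with OR21 and 146 in control, with the control array below background, and gave -2.08 as measured and -1.95 with the floor.

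**Figure D2:**
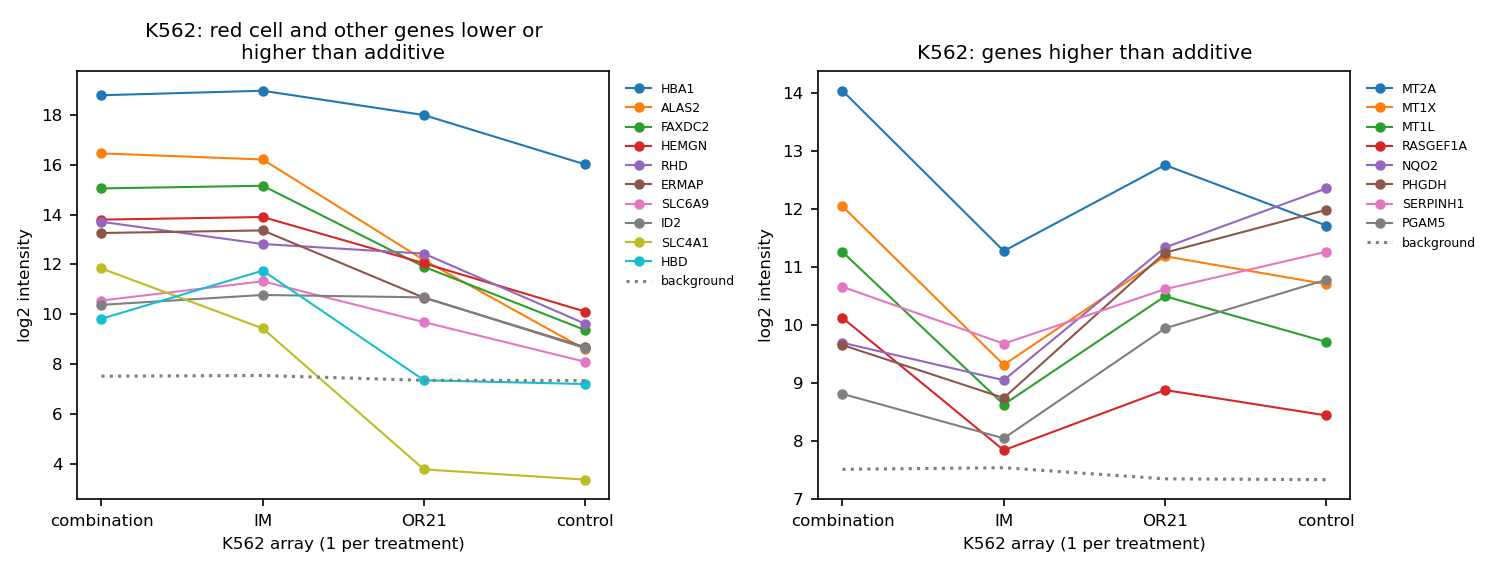
Log2 intensity (vertical axis) of named K562 genes on the combination, IM, OR21 and control arrays, 1 array per treatment, with red cell and other genes left, metallothioneins and other genes higher than additive right, and the dotted line marking background. ALAS2, HEMGN and ERMAP run nearly level between combination and IM and drop to control. MT1X and MT2A are lowest on the IM array and highest on the combination array.

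Metallothioneins were the K562 group that lay above additivity. These small cysteine-rich proteins bind zinc and copper, and their genes respond to metals and oxidants. All 5 kept members had a positive interaction, 4 of them at least 2-fold, with a median of 1.17. The share higher by at least 2-fold over all kept K562 genes was 1.92%. In each of the 5, IM was the lowest array and the combination the highest. MT1X measured 4225 in the combination, 635 with IM, 2327 with OR21 and 1666 in control, an interaction of 2.25, the highest among K562 genes above background on all 4 arrays. MT2A measured 16840 in the combination, 2478 with IM, 6928 with OR21 and 3359 in control, an interaction of 1.72. MT1G measured 1656 in the combination, 520 with IM, 1273 with OR21 and 897 in control, an interaction of 1.17. OR21 values exceeded control by less than the combination exceeded IM in all 3. MT1M gave 1.08, and MT1L, a related gene outside the list, gave 1.84. Members of this family are similar enough in sequence that probe sets may share signal.

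The promoters of MT1X and MT2A are shown because both genes departed furthest in this group. Capitals mark matches, on either strand, to TGCACNC or TGCGCNC, the core of the metal response element bound by the zinc-sensing factor MTF1, in the 250 bases before the start (RefSeq, GRCh38.p14).
MT1X chr16:56682220-56682469, plus strand: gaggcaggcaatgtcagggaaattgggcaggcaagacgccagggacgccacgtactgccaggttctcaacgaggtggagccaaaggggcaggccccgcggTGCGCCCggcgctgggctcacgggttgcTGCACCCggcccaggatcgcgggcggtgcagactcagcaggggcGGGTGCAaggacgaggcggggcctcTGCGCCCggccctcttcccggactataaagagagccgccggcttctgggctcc
MT2A chr16:56608334-56608583, plus strand: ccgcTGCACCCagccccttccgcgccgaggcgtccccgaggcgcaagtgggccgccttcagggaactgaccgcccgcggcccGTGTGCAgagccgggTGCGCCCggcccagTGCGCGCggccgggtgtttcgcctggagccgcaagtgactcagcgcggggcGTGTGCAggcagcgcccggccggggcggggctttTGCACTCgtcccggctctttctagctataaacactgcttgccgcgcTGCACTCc

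The MT1X window held 4 matches and the MT2A window 7. Over the 300-base windows, 29.3% of all RefSeq promoters held at least 1 match and 8.59% at least 2, against 39.8% and 12.9% of kept K562 genes. All 3 kept K562 metallothioneins with a promoter entry held at least 2, and so did all 4 kept in KBM5. Of 115 K562 genes higher than additive by at least 2-fold, 39 held at least 1 match (33.9%) and 17 at least 2 (14.8%). A match shows no binding and no link to the interaction. In KBM5, 0 of 8 kept metallothioneins were past 2-fold. The share over all kept KBM5 genes was 8.11%, so a count of 0 in a list of this size is near that share. Of the 8, 6 were positive and 2 negative, and the median was 0.45 against 0.07 over all kept genes. MT1X there measured 14465 in the combination, 5618 with IM, 13653 with OR21 and 6079 in control, an interaction of 0.20. MT2A measured 35784 in the combination, 14302 with IM, 39600 with OR21 and 13064 in control, an interaction of -0.28. In KBM5 both OR21-treated arrays were high for these genes and both arrays without OR21 were low. K562 minus KBM5 was 2.05 for MT1X and 2.00 for MT2A, and this difference between lines has no test.

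Amino acid and unfolded protein stress genes also tended above additivity in K562. Over all kept K562 genes, 1.92% were higher by at least 2-fold and 1.78% lower. Of 25 kept members, 21 had a positive interaction, 5 were higher by at least 2-fold and 0 lower, with a median of 0.55, and 4 were higher with the floor. PHGDH, the first enzyme of serine synthesis, measured 805 in the combination, 427 with IM, 2429 with OR21 and 4052 in control, an interaction of 1.65. SLC7A5, a carrier of large neutral amino acids, measured 878 in the combination, 495 with IM, 4565 with OR21 and 7009 in control, an interaction of 1.45. For both genes control was the highest array and IM the lowest, and OR21 values lay below control while combination values lay above IM. TRIB3, a stress-induced pseudokinase, measured 110 in the combination and 63.4 with IM, both below background, 291 with OR21 and 526 in control, and gave 1.65 as measured and 0.83 with the floor.

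The other K562 genes furthest above additivity and above background on all 4 arrays had varied roles. NQO2, a quinone reductase, measured 827 in the combination, 529 with IM, 2586 with OR21 and 5239 in control, an interaction of 1.66. SERPINH1, a collagen chaperone, measured 1614 in the combination, 818 with IM, 1570 with OR21 and 2457 in control, an interaction of 1.63. PGAM5, a mitochondrial protein phosphatase, measured 449 in the combination, 264 with IM, 983 with OR21 and 1757 in control, an interaction of 1.60. In these 3 genes, control was the highest array and IM the lowest. RASGEF1A, an exchange factor for Ras family proteins, measured 1114 in the combination, 229 with IM, 470 with OR21 and 347 in control, an interaction of 1.84, with the combination standing above the rest.

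Some K562 departures lay near background on 1 or 2 arrays. H2BC14, a histone H2B gene, measured 5283 in the combination, 12.9 with IM, 20592 with OR21 and 18.9 in control. It was high on both OR21-treated arrays and below background on both others, with an interaction of -1.41 as measured and -2.17 with the floor. KRT10, a keratin, measured 38.7 in the combination and 34.6 with IM, both below background, 723 with OR21 and 250 in control, and gave -1.37 as measured and -1.56 with the floor. AQP3, a water and glycerol channel, measured 160 in the combination, below background, 226 with IM, 876 with OR21 and 402 in control, and gave -1.62 as measured and -1.43 with the floor. DUSP21 measured 1751 in the combination, 340 with IM, 36.4 with OR21 and 12.1 in control, the last 2 below background, and gave 0.78 as measured and 2.35 with the floor. HOXB7, a homeobox factor, measured 211 in the combination, 117 with IM, 157 with OR21 and 380 in control, with IM and OR21 below background, and gave 2.13 as measured and 1.41 with the floor.

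No cell cycle gene on the lists was past 2-fold in K562, where the share over all kept genes was 3.69%, so a count of 0 in lists of this size is near that share. Of 26 kept G1/S and DNA replication genes and 27 G2/M and mitosis genes, 0 were past 2-fold in either direction, with medians of -0.18 and -0.02. Of 22 MYC target and ribosome biogenesis genes and 12 JAK-STAT targets, 0 were past 2-fold, with medians of 0.04 and -0.05, although the JAK-STAT targets lay well below control on the IM array (median IM minus control -2.87). CCND2, a D cyclin, measured 2505 in the combination, 2143 with IM, 13806 with OR21 and 13376 in control, an interaction of 0.18. SRM, spermidine synthase, measured 2239 in the combination, 1462 with IM, 20571 with OR21 and 13419 in control, and its interaction rounded to 0.00. Both genes were low with IM whether or not OR21 came first. Among 25 lists with at least 5 kept K562 genes, 17 had a median within 0.2 of 0, against 10 of 22 in KBM5.

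In KBM5, cell division genes lay above additivity. Over all kept KBM5 genes, 5.68% were higher by at least 2-fold and 2.43% lower. IM was the lowest array for 27 of 27 kept G2/M genes and 21 of 25 G1/S genes, so the combination values lay above those of IM in these genes. Of the 25 G1/S and DNA replication genes, 10 were higher than additive by at least 2-fold and 0 lower, and 21 were positive, with a median of 0.92 against 0.07 over all kept genes. Of the 27 G2/M and mitosis genes, 7 were higher and 0 lower, and 25 were positive, with a median of 0.89. With values below background set to background, 5 G1/S genes were higher and 1 lower, with a median of 0.31, and 4 G2/M genes were higher and 0 lower, with a median of 0.67. Fewer dividing cells and less RNA per cell cannot be told apart in such bulk samples.

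PCNA, the sliding clamp of DNA polymerases, measured 953 in the combination, 401 with IM, 8891 with OR21 and 10192 in control, an interaction of 1.45. TTK, a kinase of the spindle checkpoint, measured 967 in the combination, 408 with IM, 4771 with OR21 and 4856 in control, an interaction of 1.27. UHRF1, which brings the maintenance methyltransferase to newly copied DNA, measured 622 in the combination, 329 with IM, 5612 with OR21 and 7876 in control, an interaction of 1.41. For all 3, both arrays without IM were high, IM was lowest, and the combination remained nearer to IM than to control. RRM2, a ribonucleotide reductase subunit, measured 529 in the combination, 146 with IM, below background, 9529 with OR21 and 8824 in control, and gave 1.75 as measured and 1.10 with the floor. HMMR, a spindle-associated protein, measured 232 in the combination, 63.6 with IM, below background, 276 with OR21 and 399 in control, and gave 2.40 as measured and 0.55 with the floor. CDC45, a helicase component, measured 177 in the combination and 60.9 with IM, both below background, 6220 with OR21 and 7000 in control, and its 1.71 as measured became -0.06 with the floor.

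Histone genes that are expressed with DNA replication behaved alike in KBM5, where the shares over all kept genes were 5.68% higher and 2.43% lower. Of 25 kept members, 23 were positive, 8 higher by at least 2-fold and 0 lower, with a median of 0.60, and 6 were higher with the floor. H1-2, a linker histone, measured 1542 in the combination, 235 with IM, 3262 with OR21 and 4098 in control. Its interaction of 3.05 was the highest among KBM5 genes above background on all 4 arrays, with the IM array alone near background. H2BC8, a histone H2B gene, measured 1187 in the combination, 334 with IM, 11753 with OR21 and 10788 in control, an interaction of 1.71. H3C2, a histone H3 gene, measured 2873 in the combination, 1395 with IM, 12131 with OR21 and 18124 in control, an interaction of 1.62. Histone genes are near-identical in places, and their probe sets may share signal. In K562, 1 of 25 kept histone genes was higher and 3 lower, with a median of 0.08. The shares over all kept K562 genes were 1.92% and 1.78%.

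Glucose uptake and glycolysis genes formed another group above additivity in KBM5, and leaned the same way in K562. In K562, 15 of 20 kept members were positive, 2 higher by at least 2-fold and 0 lower, with a median of 0.20. With the floor, 1 of them was higher. In KBM5, 5.68% of all kept genes were higher by at least 2-fold and 2.43% lower. Of 18 kept members, 17 were positive, 6 higher by at least 2-fold and 0 lower, with a median of 0.53, and the same count of 6 was reached with the floor. ALDOC, an aldolase, measured 1050 in the combination, 294 with IM, 6599 with OR21 and 8965 in control, an interaction of 2.28. PDK1, which restrains entry of pyruvate into the citric acid cycle, measured 928 in the combination, 741 with IM, 2563 with OR21 and 5005 in control, an interaction of 1.29. HK2, a hexokinase, measured 313 in the combination, 203 with IM, below background, 464 with OR21 and 1167 in control, and gave 1.96 as measured and 1.78 with the floor. In these 3 genes, control was the highest array and IM the lowest. SLC2A3, a glucose transporter with a close relative in SLC2A14, measured 171 in the combination and 46.6 with IM, both below background, 1495 with OR21 and 4698 in control, so its 3.52 as measured became 1.42 with the floor. ADM, the peptide adrenomedullin, measured 378 in the combination, 242 with IM, 561.7 with OR21 and 2456 in control, an interaction of 2.77. ADM was low on all 3 treated arrays and high in control.

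Other KBM5 genes far above additivity had varied roles, with 2 BCL2 family genes among them. Of 9 kept BCL2 family genes, these 2 were higher by at least 2-fold and 0 lower, with a median of 0.54. Of 14 kept CDK inhibitors and p53 targets, 1 was higher and 1 lower, with a median of 0.15. BCL2, which blocks mitochondrial cell death, measured 1447 in the combination, 648 with IM, 1244 with OR21 and 2442 in control, an interaction of 2.13. PMAIP1 (NOXA), a BH3-only protein that promotes cell death, measured 907 in the combination and 134 with IM, 217 with OR21 and 226 in control, with IM and control below background. The combination array stood alone for PMAIP1, with an interaction of 2.81 as measured and 2.26 with the floor. MEF2C, a transcription factor, measured 985 in the combination, 355 with IM, 254 with OR21 and 582 in control, an interaction of 2.67. S100A10, a partner of annexin A2, measured 3191 in the combination, 945 with IM, 2385 with OR21 and 3080 in control, an interaction of 2.12. For MEF2C each single treatment lay below control and the combination above it, and for S100A10 the combination and control were alike. KBTBD11 measured 501 in the combination, 269 with IM, 275 with OR21 and 808 in control, an interaction of 2.45. DCPH1 measured 708 in the combination, 300 with IM, 480 with OR21 and 849 in control, an interaction of 2.06.

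Class I antigen presentation split in KBM5. The shares over all kept KBM5 genes were 5.68% higher and 2.43% lower. Of 14 kept genes, 5 were higher than additive by at least 2-fold and 0 lower, while 7 were positive and 7 negative, with a median of 0.06. HLA-C, a class I heavy chain, measured 3533 in the combination, 1277 with IM, 1000 with OR21 and 1031 in control, an interaction of 1.51, with the combination above the 3 others. PSMB8 and PSMB9 are subunits of the immunoproteasome. PSMB8 measured 853 in the combination, 410 with IM, 1722 with OR21 and 2137 in control, an interaction of 1.37. PSMB9 measured 510 in the combination, 363 with IM, 254 with OR21 and 482 in control, an interaction of 1.41. HLA genes are similar to each other, and probe sets may share signal.

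Genes of DNA methylation and cytidine handling are of interest because OR21 is a demethylating agent. In KBM5, 3 of 15 kept members were higher and 1 lower, where the shares over all kept genes were 5.68% and 2.43%. The median was 0.32, and with the floor 2 were higher and 0 lower. In K562, 0 of 15 were past 2-fold, which is near the share of 3.69% over all kept genes, and the median was 0.04. Counts this small do not set the lines apart. SLC29A1, a nucleoside transporter, measured 885 in KBM5 in the combination, 291 with IM, 4381 with OR21 and 3720 in control, an interaction of 1.37. TET2, which oxidises methylcytosine, measured 1880 in the combination, 1651 with IM, 494 with OR21 and 149 in control, with control below background, and gave -1.54 as measured and -0.72 with the floor. DNMT1, the maintenance methyltransferase, was close to additive: it measured 409 in the combination, 400 with IM, 1613 with OR21 and 1626 in control in KBM5, an interaction of 0.05.

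Myeloid genes lay on both sides in KBM5. Of 16 kept granulocytic and monocytic genes, 2 were higher and 4 lower by at least 2-fold. The shares over all kept KBM5 genes were 5.68% and 2.43%. The list's median was -0.31 as measured. The median was -0.19 with the floor, and 0.39, with 2 higher and 2 lower, over the 11 members above background on all 4 arrays. LYZ, lysozyme, measured 185905 in the combination, 254951 with IM, 31218 with OR21 and 12342 in control, an interaction of -1.79. CTSG, the granule protease cathepsin G, measured 28746 in the combination, 2837 with IM, 19152 with OR21 and 6992 in control, an interaction of 1.89. NCF1, a subunit of the NADPH oxidase, measured 16600 in the combination, 6155 with IM, 8400 with OR21 and 11883 in control, an interaction of 1.93. LYZ was highest with IM, while CTSG and NCF1 were lowest with IM and highest in the combination. CSF1R, the receptor for macrophage colony-stimulating factor, measured 1005 in the combination and 2101 with IM, against 63.6 with OR21 and 42.7 in control, both below background, and gave -1.64 as measured and -0.58 with the floor.

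The KBM5 genes furthest below additivity and above background on all 4 arrays mostly had their lowest value in control. TENT5A, a non-canonical poly(A) polymerase, measured 8665 in the combination, 7055 with IM, 3569 with OR21 and 442 in control, an interaction of -2.72. CD82, a tetraspanin, measured 2782 in the combination, 1910 with IM, 1621 with OR21 and 275 in control, an interaction of -2.02. CD38, an ectoenzyme that consumes NAD, measured 3624 in the combination, 3696 with IM, 3692 with OR21 and 1029 in control, an interaction of -1.87. In these 3 genes the treated arrays were high together, and for CD38 they were nearly equal. SLC8B1, a mitochondrial sodium and calcium exchanger, measured 3994 in the combination, 4627 with IM, 2950 with OR21 and 1026 in control, an interaction of -1.74. DENND1B, an exchange factor for Rab GTPases, measured 929 in the combination, 1686 with IM, 503 with OR21 and 289 in control, an interaction of -1.66. HRH2, the histamine H2 receptor, measured 236 in the combination, 584 with IM, 528 with OR21 and 278 in control, an interaction of -2.23. HCCS, which attaches heme to cytochrome c, measured 195 in the combination, 445 with IM, 450 with OR21 and 291 in control, an interaction of -1.82. HRH2 and HCCS differed from the rest in being lowest in the combination.

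Some KBM5 genes, among them PRG2, KCNH2 and GATA2, were below background without OR21 and above it with it. PRG2, an eosinophil granule protein, measured 1190 in the combination, 35.8 with IM, 14082 with OR21 and 209 in control, and gave -1.02 as measured and -3.36 with the floor. KCNH2, a potassium channel, measured 675 in the combination, 31.0 with IM, 6376 with OR21 and 34.6 in control, and gave -3.08 as measured and -3.04 with the floor. GATA2, a stem and progenitor transcription factor, measured 464 in the combination, 75.7 with IM, 2154 with OR21 and 196 in control, and gave -0.84 as measured and -2.01 with the floor. All 3 were below background on the IM and control arrays and lower in the combination than with OR21 alone. AIG1, a hydrolase of fatty acid esters, differed in being below background on the IM array only. It measured 308 in the combination, 190 with IM, 1470 with OR21 and 292 in control. Its interaction was -1.64 as measured and -1.90 with the floor.

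Other KBM5 genes near background stood highest in the combination. C3AR1, the receptor for complement fragment C3a, measured 2096 in the combination, 93.3 with IM, 306 with OR21 and 43.7 in control, and gave 1.69 as measured and 2.98 with the floor. CXCL8, the neutrophil chemokine interleukin 8, measured 1193 in the combination, 260 with IM, 230 with OR21 and 177 in control, and gave 1.82 as measured and 2.39 with the floor. CES1, a carboxylesterase, measured 953 in the combination, 248 with IM, 151 with OR21 and 136 in control, and gave 1.80 as measured and 2.42 with the floor. FILIP1L measured 993 in the combination, 216 with IM, 195 with OR21 and 91.1 in control, and gave 1.11 as measured and 2.55 with the floor. All 4 were above background in the combination and below it in control.

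**Figure D3:**
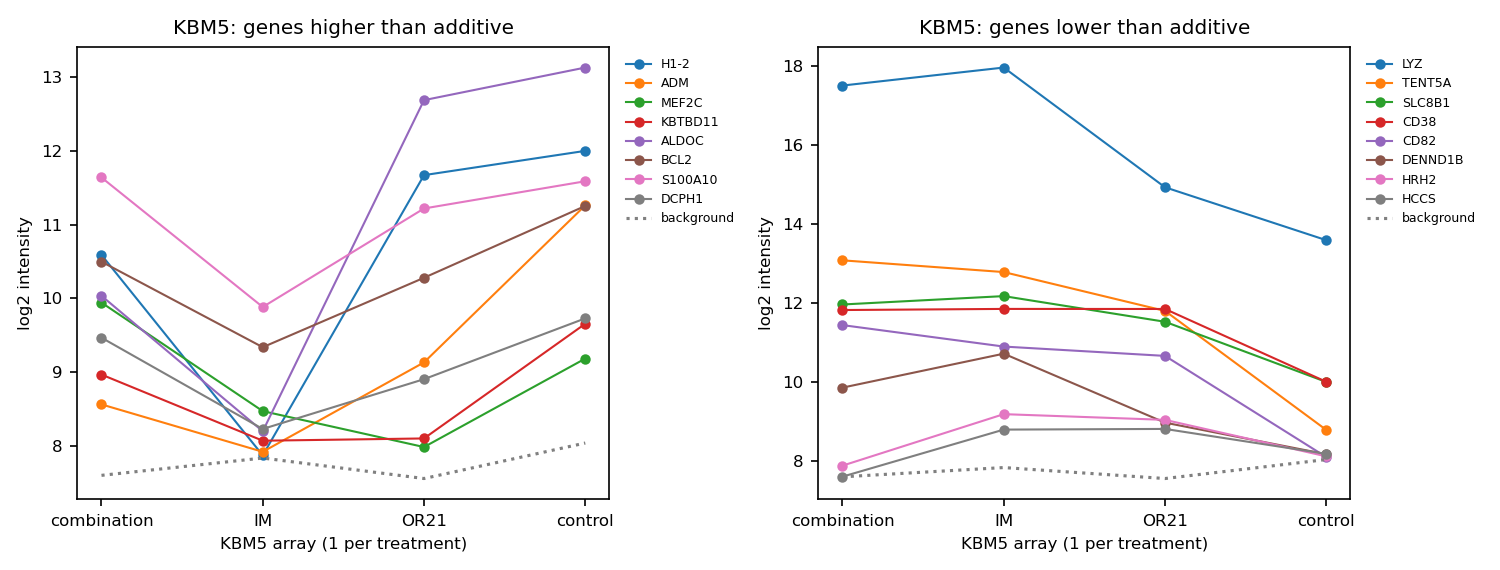
Log2 intensity (vertical axis) of named KBM5 genes on the combination, IM, OR21 and control arrays, 1 array per treatment, with genes higher than additive left, genes lower than additive right, and the dotted line marking background. H1-2 and ALDOC dip on the IM array, while TENT5A, CD82 and CD38 are low on the control array.

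Whether OR21 blunted or deepened the imatinib change was read from genes whose mean IM difference, averaged over the pair with OR21 and the pair without it, was at least 2-fold. This mean favours neither sign of the interaction only if error is of equal size on every array of a line. IM minus control alone would favour blunting even then. Larger error on the IM and control arrays would favour blunting by itself, and this was not tested. In KBM5, background was 263 on the control array and 229 on IM, against 189 on OR21 and 194 on the combination. In K562, it was 161 on control, 186 on IM, 162 on OR21 and 182 on the combination. In K562, 88 of 1447 such genes (6.08%) had an IM change at least 2-fold smaller after OR21, and 12 (0.829%) at least 2-fold larger. In KBM5, 226 of 2179 (10.4%) were blunted and 59 (2.71%) deepened. Blunting outnumbered deepening in both lines, and the typical size was small: the median interaction along the direction of the IM change was -0.16 in K562 and -0.17 in KBM5.

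The counts differed with the direction of the IM change, most in KBM5. Among 1216 KBM5 genes lower with IM, 168 were blunted and 11 deepened, and among 963 genes higher with IM, 58 were blunted and 48 deepened. In K562, 46 of 509 genes higher with IM were blunted and 3 deepened, against 42 and 9 of 938 genes lower with IM. With genes above background on all 4 arrays, 52 of 1057 were blunted and 7 deepened in K562, and 102 of 1458 and 22 in KBM5. A further set took genes with a mean IM difference of at least 2-fold in the other line and the same sign in both lines. Of these, 26 of 1444 were blunted and 5 deepened in K562, and 60 of 881 and 12 in KBM5. Genes whose sign differed between the lines were left out, so this set is not independent of the line's own direction. With values below background set to background, 57 of 1234 genes were blunted and 14 deepened in K562. In KBM5, 126 of 1919 were blunted and 66 deepened, so the excess of blunting was smaller in both lines. The floor differs between arrays, in KBM5 263 on control against 189 on OR21. Unequal floors can move these counts by themselves, and their part was not tested. ALAS2 and HBA1 are examples among K562 genes higher with IM, and PCNA and H1-2 among KBM5 genes lower with IM.

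**Figure D4:**
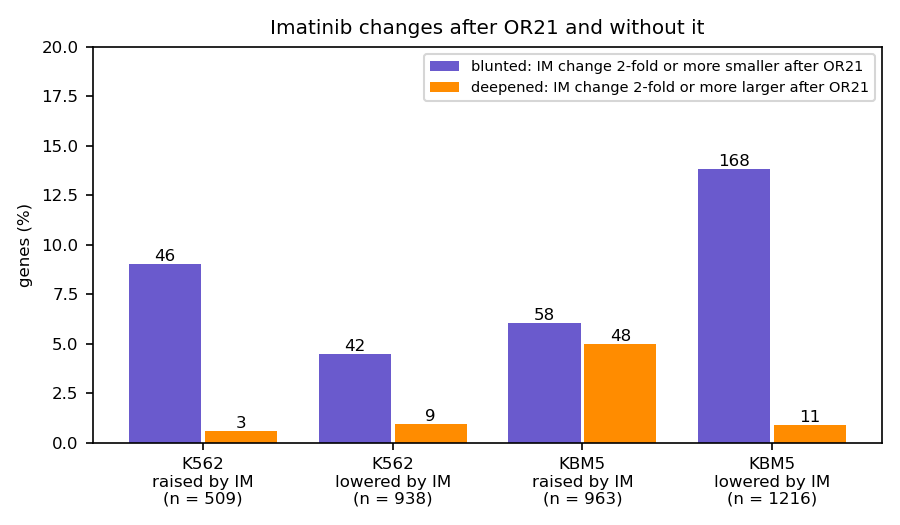
Share of genes (vertical axis, %) whose imatinib change was at least 2-fold smaller (blunted) or larger (deepened) after OR21, by line and by the direction of the mean IM difference, with the number of genes above each bar. Blunted bars exceed deepened ones in all 4 groups, and are closest together for KBM5 genes raised by IM (58 and 48).

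Read from the other drug, the same interaction asks whether IM blunted or deepened the OR21 change. In K562, 17 of 60 genes with a mean OR21 difference of at least 2-fold were blunted and 6 deepened. That balance did not hold in other sets. It was 7 blunted and 5 deepened of 29 genes above background on all 4 arrays. A set of 74 genes had a mean OR21 difference of at least 2-fold in KBM5 and the same sign in K562. Of these, 3 were blunted and 7 deepened. In KBM5, 27 of 208 were blunted and 28 deepened, so neither prevailed there. The median size of the OR21 change was 1.08 with IM and 1.56 without it in K562, and 1.33 and 1.26 in KBM5.

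Few genes were past 2-fold in both lines. Of 5961 genes kept in both, 11 (0.185%) were past 2-fold in the same direction, 8 higher and 3 lower, and 6 in opposite directions. The 11 made up 7.14% of the 154 K562 genes and 2.76% of the 399 KBM5 genes past 2-fold in this set. Of the 154 K562 genes, 11 were past 2-fold the same way in KBM5 and 6 the opposite way. Over all 5961 genes, 399 were past it in KBM5, in either direction. With counts this low, a small overlap does not by itself set the lines apart. The sign was the same in 54.7% of the 5961 genes, and the correlation of the interactions across genes was 0.11 (Pearson) and 0.12 (Spearman). Genes of 1 array are not independent, and these correlations are given as descriptions.

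Genes above additivity in both lines, above background on all 8 arrays, included stress and metabolic genes. DDIT4, an inhibitor of the mTORC1 growth pathway, measured 568 in the combination, 322 with IM, 1959 with OR21 and 2587 in control in K562, an interaction of 1.22. In KBM5 it measured 1640 in the combination, 889 with IM, 1565 with OR21 and 3238 in control, an interaction of 1.93. In both lines control was highest and IM lowest. ALDOC, described for KBM5, measured 6481 in the combination, 2450 with IM, 9487 with OR21 and 7730 in control in K562, an interaction of 1.11. EHD1, an ATPase of endosome recycling, measured 920 in the combination, 636 with IM, 396 with OR21 and 607 in control in K562 (1.15), and 435 in the combination, 243 with IM, 311 with OR21 and 410 in control in KBM5 (1.24). STX10, a syntaxin, gave 1.08 and 1.00, DALRD3 gave 1.10 and 1.51, and NQO2 gave 1.66 and 0.99 in K562 and KBM5.

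Genes below additivity in both lines were less marked. MMGT1, a subunit of the endoplasmic reticulum membrane complex, measured 1213 in the combination, 2000 with IM, 2238 with OR21 and 1453 in control in K562, an interaction of -1.34. In KBM5 it measured 655 in the combination, 1196 with IM, 686 with OR21 and 595 in control, an interaction of -1.07. SPPL3, an intramembrane protease, measured 352 in the combination, 682 with IM, 550 with OR21 and 446 in control in K562 (-1.26), and 801 in the combination, 1052 with IM, 599 with OR21 and 373 in control in KBM5 (-1.08). In both genes and both lines the combination was below IM. CTSZ, the lysosomal protease cathepsin Z, measured 6486 in the combination, 8540 with IM, 3654 with OR21 and 2570 in control in K562 (-0.90), and 12203 in the combination, 11647 with IM, 7469 with OR21 and 2951 in control in KBM5 (-1.27). MAPK1IP1L gave -1.05 and -0.93, SERINC5, a multipass membrane protein, -0.98 and -0.93, and SPRYD4 -0.79 and -1.19 in K562 and KBM5.

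The test of an interaction common to both lines used limma with line as a block and 3 residual degrees of freedom, in which the lines served as repeats. It called 0 of all genes tested (0.0%) at an adjusted p under 0.05, with 274 genes at an unadjusted p under 0.05 (1.55%) and a lowest adjusted p of 1.000. The residual of this test measures how the lines differ in the drug effects and the interaction, not error between repeat arrays. A count of 0 therefore does not show that a shared interaction is absent. A limma fit added after seeing the data had the drug effects of each line fitted apart and 1 common interaction. It also called 0, with 1002 genes at an unadjusted p under 0.05 and a lowest adjusted p of 0.851. DALRD3 had an interaction of 1.31 ± 0.34 (SE) in the first limma fit, and DDIT4 1.58 ± 0.68, both with an adjusted p of 1.000.

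**Figure D5:**
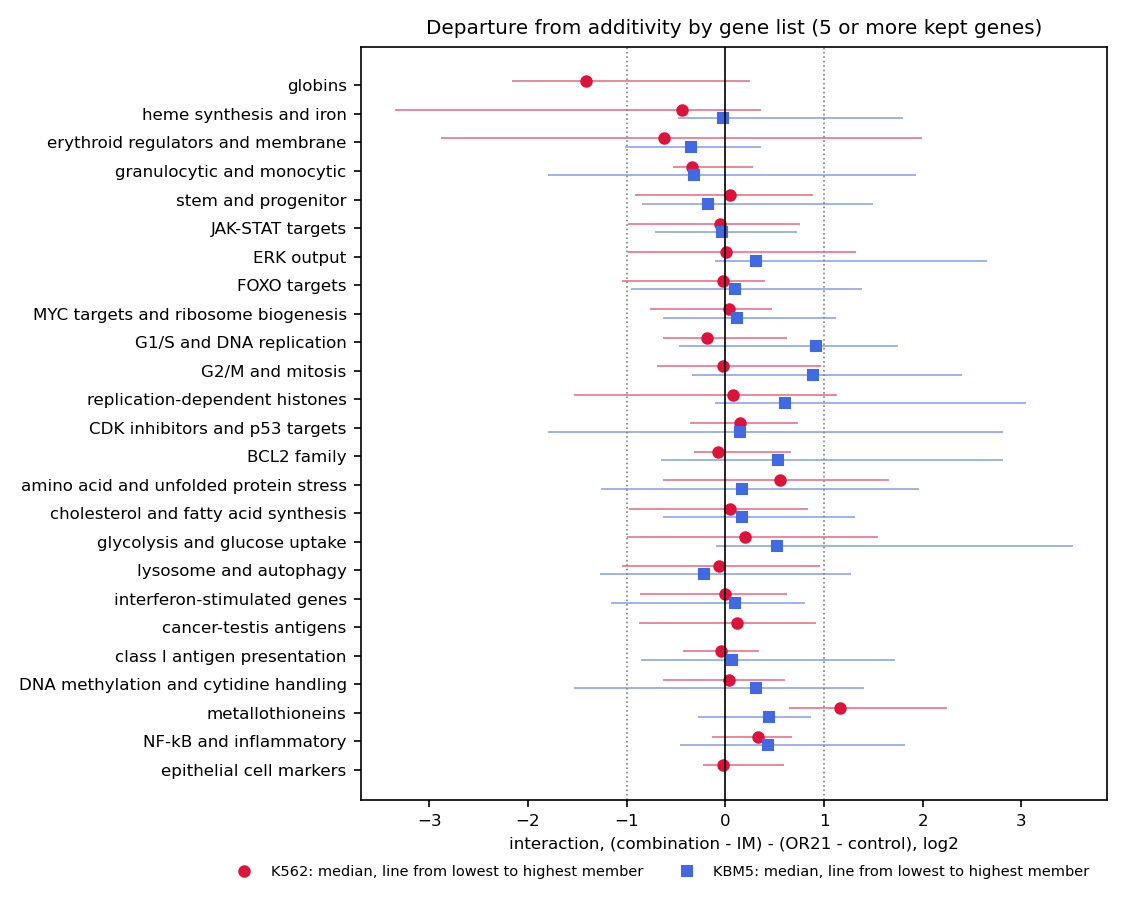
Interaction (horizontal axis, log2) by gene list, with the median of kept members as a circle for K562 or a square for KBM5, and a line from the lowest to the highest member. Lists with at least 5 kept genes in a line are drawn, and globins (K562, -1.41) and metallothioneins (K562, 1.17) have the medians furthest from 0, followed by the KBM5 G1/S (0.92) and G2/M (0.89) lists.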

How the data were processed

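Per the labels, biotin-labelled total RNA was hybridised to expression arrays. The deposited values are a linear intensity per probe set, in a table of 24351 probe sets that the authors made. How the authors summarized and normalized them is not given in the sources read. Gene names came from the supplied probe annotation: 17709 probe sets had 1 symbol, 0 had several and 3739 transcript clusters had none, which gave 17687 genes. Where a gene had several probe sets (20 genes), the brightest stood for it.

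All analysis was on log2(value), with no added normalization, using Python 3.11.15, pandas 2.3.3 and numpy 2.4.6. Background was the 95th percentile of 612 negative control probe sets on each array. A value below background is given as measured, its size is not exact, and an interaction with each array floored at its background is given beside it. The floor differs between arrays, so genes below background on all 4 arrays of KBM5 have a floored interaction of 0.25, and of -0.04 in K562. Precision is limited by 1 array per treatment and line; nothing states separate cultures.

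Within a line, genes past 2-fold were counted with no test. The test of both lines was limma 3.58.1 (R 4.3.3), line + OR21*IM, with Benjamini-Hochberg adjustment. It was also run on simulated data in which the drug effects did not differ between lines, so that run does not measure its power here. The named genes were, per line, the 8 highest and 8 lowest interactions among genes above background on all 4 arrays, and 4 and 4 among genes above it on 2 or 3 arrays ranked by floored values. Over both lines, 6 and 6 of the same sign and 4 and 4 of opposite sign above background on all 8 arrays were named, and up to 4 members of each of 30 gene lists (698 members, 620 measured). GATA1 and DNMT1 were chosen after their values were seen. Members and lists were chosen with earlier results of these data known. Promoters are RefSeq sequences of GRCh38.p14.

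The alternatives were quantile normalization, log2(value + 16), genes above background on all arrays, the mean of probe sets, the floor, 1.5-fold and 3-fold, the 99th percentile as background, moderation with a trend, each array left out, and, added after seeing the data, the linear scale and drug effects fitted apart.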

Additional observations from a re-analysis of the deposited data

Results flagged for a closer look

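In 8 genes above background on all 8 arrays, the interaction had opposite signs in K562 and KBM5, which brought them here. With 1 array per treatment and line, the difference was not tested. All differences are K562 minus KBM5 on the log2 scale.

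SEC24D, a coat protein of vesicles leaving the endoplasmic reticulum, differed by 2.67, with 439 in the combination, 257 with IM, 302 with OR21 and 389 in control in K562. In KBM5 it measured 604 in the combination, 764 with IM, 1251 with OR21 and 546 in control. GK5, a glycerol kinase family member, differed by 2.45, DDX19B, an RNA helicase of mRNA export, by 1.98, and NDUFB7, a subunit of respiratory complex I, by 1.79. These 4 were higher than additive in K562 and lower in KBM5.

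H1-5, a linker histone, differed by -2.39, with 621 in the combination, 227 with IM, 1949 with OR21 and 247 in control in K562. In KBM5 it measured 20161 in the combination, 13588 with IM, 151007 with OR21 and 184204 in control. In K562 both OR21-treated arrays were high for H1-5, and in KBM5 both arrays without IM were. CTBS, a lysosomal chitobiase, differed by -2.05, NUP133, a nuclear pore component, by -1.62, and TIMP1, an inhibitor of metalloproteinases, by -1.61. TIMP1 in K562 measured 7958 in the combination, 10654 with IM, 31754 with OR21 and 24996 in control, and in KBM5 4705 in the combination, 773 with IM, 1715 with OR21 and 505 in control. It was lower with IM in K562 and highest in the combination in KBM5.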

How the results depend on the processing

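With genes above background on all 4 arrays, 171 genes were past 2-fold in K562 and 274 in KBM5, 7 in both lines, and 7.00% of IM-changed KBM5 genes were blunted. With the 99th percentile as background, these were 90 and 152 genes and 2 in both lines (ALDOC and SLC7A5), with 8.76% blunted in KBM5, and the OR21 change in KBM5 turned from 27 blunted and 28 deepened to 14 and 11, or 15.6% blunted. With the floor, 4.62% of IM-changed genes were blunted and 1.13% deepened in K562, and 6.57% and 3.44% in KBM5. At 1.5-fold, 1338 genes were past the threshold in K562, 1823 in KBM5 and 178 in both, with 15.2% and 20.6% blunted. At 3-fold, 37 were past it in K562, 124 in KBM5 and 0 in both, with 3.65% and 4.45% of IM changes blunted, and 15% and 6.38% of OR21 changes. The floor reversed EPB42 (0.49) and TUBB1 (0.35) in K562, and CDC45 (-0.064) and TP53INP1 (0.54) in KBM5; the floor itself sets these values. Of 1028 named gene values under 4 alternatives, 988 stayed within 1 standard deviation of the positive controls, 36 moved and 4 reversed. Limma called 0 genes under every alternative run, with 161 to 540 genes at an unadjusted p under 0.05 when each array was left out, 21 with genes above background on all 8 arrays 1002 with the drug effects of each line fitted apart, and 268 to 320 under the remaining alternatives run for it. Quantile normalization, log2(value + 16) and the mean of probe sets kept the counts of genes past 2-fold within 1.5 times. No paired analysis was possible because each line and treatment has 1 array, so no replicate numbers recur, and the block in the limma fit is the line.

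Signal over background limits genes below it on 1 or more arrays, where sizes are not exact, and the lack of a second array leaves every difference within a line without a test.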

Other observations

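MPO, the myeloperoxidase of neutrophil granules, measured 5282 in KBM5 in the combination, 35.9 with IM, 11442 with OR21 and 65.8 in control. It was high on both OR21-treated arrays and below background on both others, with an interaction of -0.24 as measured and -0.91 with values below background set to background, so its size is not exact. It was chosen after its values were seen.

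Among transcript clusters with no gene name that passed the filter, 41 of 1083 in K562 were past 2-fold, 17 higher and 24 lower than additive. In KBM5, 64 of 996 were past it, 30 higher and 34 lower.

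CD3D, a chain of the T cell receptor complex used here as a lymphoid marker, measured 29.7 in the combination and 22.1 with IM in K562, both below background, against 459 with OR21 and 817 in control, and gave 1.26 as measured and 0.80 with the floor. KRT8, an epithelial keratin, measured 8100 in the combination, 6157 with IM, 33866 with OR21 and 38764 in control in K562, an interaction of 0.59. Both markers were higher without IM than with it.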
